A study of Homo sapiens with 34 samples.

Results

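The genes described here encode the proteins of the human mitochondrial ribosome whose symbols begin with MRPL or MRPS followed by a number. They were found as the rows of the deposited RNA-seq table with the gene type protein-coding and such a symbol, which gave 75 of the 28071 rows, among 16834 protein-coding rows. The identifiers of all 75 were also present in the table of RNA immunoprecipitation (RIP), which has 25035 rows. By symbol 47 were MRPL and 28 MRPS. By the subunit in which the protein sits, 49 belonged to the large subunit (MRPS18A and MRPS30, named as small subunit proteins, are placed there), 24 to the small subunit and 2 to neither. These last were MRPS36, now known as a component of the oxoglutarate dehydrogenase complex, and ENSG00000249773.3, a row that the table also calls MRPS17 but to which the name table gives no symbol. The row ENSG00000239789.5 is called MRPS17 below. Since 2 rows share that symbol, reads could have been split between them and the values of both are uncertain. MRPL58 is listed under its older symbol ICT1 and is given beside the members, and MRPL30, MRPS12 and MRPS16 were not analysed here.

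The cells were LNCaP, an established line of human prostate cancer. Androgen-dependent cells (AD) were grown in RPMI1640 medium, and androgen-independent cells (AI) in the same medium with charcoal-stripped serum, from which steroids are depleted. RNA-seq was available for AD and AI cells that were untreated, transfected with a mock siRNA, or transfected with an siRNA against EZH2 (siEZH2), with 2 libraries each. Transfected cells were collected 24 h after Lipofectamine 2000 was used. RIP after ultraviolet crosslinking used an antibody to EZH2 or control IgG, with 2 libraries for each antibody in AD and in AI cells. Peak lists covered chromatin immunoprecipitation (ChIP) of EZH2 (2 AD, 1 AI) and H3K27me3 (2 AD, 2 AI). All groups are derived from 1 cell line, and nothing in the labels tells if a replicate was its own culture, so p-values measure the spread between these libraries, which may be technical. The treatment protocol speaks of transfecting the androgen-independent LNCaP/abl line whereas some libraries with siRNA in their titles are named AD, and here each library's group is that of its title.

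The mitochondrial ribosome translates the few mRNAs encoded by mitochondrial DNA, all of them for subunits of the respiratory chain and ATP synthase. Its proteins are encoded in the nucleus, made in the cytosol and imported. Some descend from proteins of the bacterial ribosome and others, such as MRPL37 and MRPS31, have no bacterial counterpart. EZH2 is the methyltransferase of Polycomb repressive complex 2, which places H3K27me3, a mark of silenced genes.

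RefSeq promoters (GRCh38.p14, 250 bases before to 50 after the start) were matched for 65 of the 75 members. Short letter motifs of factors known to act on nuclear genes for mitochondrial proteins were searched on both strands. The ETS core CCGGAAG, the letters bound by GABP and its relatives, was found in 25 of 65 member promoters (38.5%) and in 2086 of 13143 protein-coding promoters (15.9%). The YY1 letters AAGATGGC were found in 19 members (29.2%) and 565 promoters (4.3%). The NRF1 half-site TGCGCA was found in 14 members (21.5%) and 1538 promoters (11.7%), and the SP1 letters GGGCGG in 39 members (60%) and 8403 promoters (63.9%). None of these 4 letter strings contains another. The ETS, YY1 and NRF1 letters were present in a larger share of member promoters than of all promoters, and the SP1 letters in a similar share. Among members with a promoter, the ETS letters were present in 6 of 20 that were higher in AI cells after mock transfection, 2 of 7 that were lower and 17 of 38 not called, the YY1 letters in 4, 1 and 14 of them, and the NRF1 letters in 6, 2 and 6. A match of letters is a description and shows no binding. The bases upstream of the start are shown for 5 members on which results below turn, 5′ to 3′ on the strand of the gene, with ETS or YY1 letters in capitals. MRPL53 (chr2:74472681-74472930 on the minus strand) and MRPS31 (chr13:40771191-40771440 on the minus strand) had the largest positive and negative differences between mock AI and AD cells. MRPS22 (chr3:139343744-139343993 on the plus strand) was lower after siEZH2 in AI cells. MRPL19 and MRPL32 fell more in that comparison and are not printed. Neither of their promoters held the ETS letters, and that of MRPL32 held the YY1, NRF1 and SP1 letters. MRPL3 (chr3:131502972-131503221 on the minus strand) lay near an H3K27me3 peak, and MRPL55 (chr1:228109300-228109549 on the minus strand) had an EZH2 peak at its start in both AD lists.
MRPL53: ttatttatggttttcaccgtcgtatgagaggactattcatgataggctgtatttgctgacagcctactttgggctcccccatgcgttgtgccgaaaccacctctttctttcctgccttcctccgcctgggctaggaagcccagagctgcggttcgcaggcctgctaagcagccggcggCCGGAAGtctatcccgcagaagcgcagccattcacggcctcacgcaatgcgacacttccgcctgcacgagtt
MRPS31: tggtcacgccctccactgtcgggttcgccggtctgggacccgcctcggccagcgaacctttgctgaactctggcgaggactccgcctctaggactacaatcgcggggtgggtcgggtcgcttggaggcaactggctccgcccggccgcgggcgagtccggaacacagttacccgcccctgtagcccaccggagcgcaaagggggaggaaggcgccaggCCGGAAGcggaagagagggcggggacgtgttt
MRPS22: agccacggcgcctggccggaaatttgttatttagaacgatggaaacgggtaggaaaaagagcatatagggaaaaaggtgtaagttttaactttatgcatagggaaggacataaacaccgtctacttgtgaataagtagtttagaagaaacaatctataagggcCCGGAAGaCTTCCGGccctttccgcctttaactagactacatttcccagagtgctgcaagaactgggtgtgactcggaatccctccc
MRPL3: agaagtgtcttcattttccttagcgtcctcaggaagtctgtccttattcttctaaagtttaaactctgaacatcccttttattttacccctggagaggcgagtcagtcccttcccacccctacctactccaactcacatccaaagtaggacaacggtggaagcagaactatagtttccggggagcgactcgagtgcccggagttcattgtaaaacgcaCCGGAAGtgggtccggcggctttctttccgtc
MRPL55: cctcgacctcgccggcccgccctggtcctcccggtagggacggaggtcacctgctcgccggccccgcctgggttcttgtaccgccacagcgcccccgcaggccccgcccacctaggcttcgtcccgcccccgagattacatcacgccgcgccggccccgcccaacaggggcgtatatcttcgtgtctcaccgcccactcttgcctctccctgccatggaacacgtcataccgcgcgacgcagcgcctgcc
Each of MRPL53, MRPS31 and MRPL3 carried the ETS letters on the gene's own strand, with their first base at position -72, -32 and -32 from the start. In MRPS22 a pair of ETS matches on opposite strands began at -87 and -79. The printed stretch of MRPL55 held neither motif.

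The RNA-seq libraries were deposited as RPKM, read counts scaled for gene length and library size. From the steps between low values, their depth was approximately 17300000 to 59300000 reads in untreated and 7520000 to 12800000 reads in transfected libraries. Mitochondrially encoded genes made up 18.4% to 33.4% of the summed RPKM in untreated libraries and 2.10% to 4.07% in transfected ones. The median protein-coding gene was at 2.49 to 2.73 RPKM in transfected AD and 1.20 to 1.40 in transfected AI libraries, so the 2 sets differed in overall distribution. All 8 luminal prostate markers were expressed (summed 2439 to 6523 RPKM), and fibroblast, endothelial and 3 of 4 blood markers stayed below 1 RPKM in every library. The other blood marker, HBB, was not listed. Of 3 basal markers KRT14 reached 4.56 RPKM and of 3 neuroendocrine markers SYP reached 2.73, and the others stayed below 1.

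Without treatment, EZH2 itself was at 5.21 and 6.94 RPKM in AD cells. In untreated AI cells it was at 10.1 and 12.6. In mock libraries the order was the opposite, with 10.95 and 12.5 in AD against 7.07 and 5.44 in AI. Libraries labelled siEZH2 had 11.5 and 10.7 in AD, overlapping the AD mock libraries, and 3.60 and 4.33 in AI, below both AI mock libraries. Neither siEZH2 difference passed the test (limma on log2(RPKM + 0.5), Benjamini-Hochberg adjusted p = 1 in AD and 0.126 in AI). The AD libraries labelled siEZH2 thus do not show a lower EZH2 mRNA, and every AD value with that label is to be read with this limit.

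The members were among the more abundant mRNAs of these cells. Their median percentile among protein-coding genes was 91.2 in untreated AD, 89.6 in untreated AI, 89.1 in AD mock and 91.6 in AI mock libraries. No member had a mean below 1 RPKM, and all 75 entered the tests. Levels within a library ranged widely, from 2.69 to 404.03 RPKM in untreated AD replicate 1. By mean in untreated AD cells the order began with MRPL24 (404 and 220 RPKM), a large subunit protein, MRPS34 (313 and 260), a small subunit protein, and MRPS15 (259 and 205), a small subunit protein of bacterial type. MRPL24 overlapped both others between replicates, and both MRPS34 libraries lay above both MRPS15 libraries. It ended with MRPL35 (6.04 and 4.55), MRPL50 (3.58 and 5.02), MRPS36 (5.03 and 3.49), MRPL42 (2.69 and 3.90) and MRPS17 (3.64 and 2.72), which also overlapped. Large and small subunit members had similar medians, at 39.6 and 33.0 RPKM for the large and 39.3 and 36.6 for the small subunit in the 2 untreated AD libraries. Of the summed RPKM that was not mitochondrially encoded, the 75 members took 1.51% and 1.28% in untreated AD, 1.75% and 1.50% in untreated AI, 1.47% and 1.47% in AD mock, 1.72% and 1.73% in AI mock, 1.51% and 1.54% in AD siEZH2 and 1.66% and 1.69% in AI siEZH2. Among transfected libraries these shares were higher in every AI than in every AD library, while the untreated groups overlapped.

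**Figure D1:**
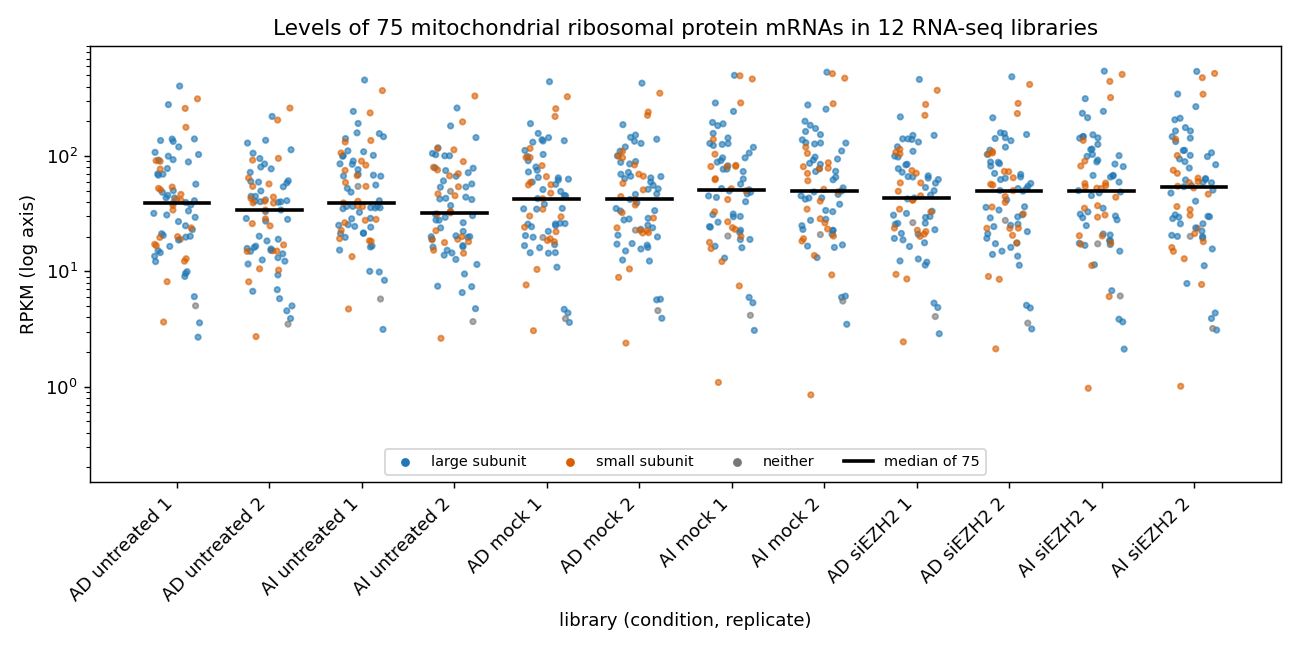
Level of each of the 75 members (points, coloured by ribosomal subunit) in each of 12 RNA-seq libraries (x axis), in RPKM on a log axis, with black bars for the median of the 75. Medians run from 32.2 RPKM in untreated AI replicate 2 to 54.3 in AI siEZH2 replicate 2.

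Untreated AI cells had more mRNA than untreated AD cells for MRPL50, MRPL13, MRPS18B and MRPS6, each close to 2-fold. Of 75 members 19 were higher and 2 lower in AI (limma over all 12 libraries, adjusted p under 0.05), where 22.2% of all 14227 genes tested were higher and 12.4% lower. At 25.3% the share of members called higher was near that background, and at 2.67% the share called lower was below it. In the individual libraries 30 members were higher in both AI than in both AD libraries and 6 lower, where 37.6% and 22.3% of all genes were. The median log2 difference was 0.26 over the members and 0.13 over all genes, and 59 of 75 members had a positive difference. The large subunit had 10 of 49 higher and 1 lower, and the small subunit 8 of 24 higher and 1 lower.

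MRPL50, a large subunit protein without a bacterial counterpart, was at 3.58 and 5.02 RPKM in AD and 8.37 and 11.5 in AI cells. The groups did not overlap, and the log2 difference was 1.12 ± 0.21 (SE, n = 2 against 2, adjusted p = 0.00331 by limma). Each SE given for RNA-seq comes from the fit over all 12 libraries, not from the compared libraries alone. The spread between untreated replicates thus also enters the SE of transfected comparisons. MRPL13, a large subunit protein of bacterial type, was at 15.1 and 14.9 in AD and 34.9 and 31.3 in AI (1.11 ± 0.17, adjusted p = 0.000915 by limma). MRPS18B, 1 of 3 human relatives of bacterial S18, was at 42.4 and 57.3 in AD and 90.3 and 113.2 in AI. All AI libraries lay above all AD libraries, by 1.03 ± 0.15 on the log2 scale (adjusted p = 0.000808 by limma). MRPS6, a small subunit protein of bacterial type, rose from 77.02 and 54.6 to 132.3 and 116.2 (0.93 ± 0.17, adjusted p = 0.00245 by limma).

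The other 2 members of the S18 family did not pass: MRPS18A was at 43.4 and 59.4 in AD and 48.6 and 60.8 in AI, and MRPS18C at 16.7 and 8.12 against 22.7 and 15.25. The lower pair was MRPL10, a protein of the stalk base, at 31.8 and 28.7 in AD and 25.1 and 19.98 in AI (-0.43 ± 0.13, adjusted p = 0.0287), and MRPS5, at 90.0 and 92.2 against 75.04 and 75.7 (-0.27 ± 0.09, adjusted p = 0.0497, both by limma). MRPL12, the stalk protein that carries translation factors to the ribosome, was at 136.3 and 105.7 against 141.7 and 117.8 and MRPL33 at 99.7 and 80.3 against 90.5 and 74.8, and both overlapped between groups. Fitted on the 4 untreated libraries alone, 1 member (MRPL13, adjusted p = 0.0369 by limma) was called higher and 0 lower. Of all genes 588 were higher and 518 lower in that fit. Without AI replicate 1, 6 members were lower. MRPS5 lost its call whenever any 1 of the 4 libraries was left out, and MRPL10 without AD replicate 1 or AI replicate 2 (adjusted p = 0.122 and 0.148).

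After mock transfection the AI libraries had more mRNA for MRPL53, MRPS24, MRPL11 and MRPS15 and less for MRPS31, MRPS17, MRPL16 and MRPS6. Of 75 members 22 were higher and 7 lower in AI than in AD, against 12.2% of all genes higher and 43.5% lower. Among members these shares were 29.3% and 9.33%, so the members held more higher and fewer lower calls than the table as a whole. All genes were not matched to the members for level, and the part of level in this contrast was not tested. The median log2 difference of the members was 0.26 while that of all genes was -0.41, and 71 of 75 members lay above the all-gene median. The large subunit had 15 of 49 higher and 1 lower, and the small subunit 7 of 24 higher and 6 lower. In the individual libraries 49 members were higher in both AI than in both AD libraries and 19 lower, where 22.7% and 58.4% of all genes were.

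MRPL53, a large subunit protein without a bacterial counterpart, was at 26.2 and 23.9 RPKM in AD mock and 96.5 and 94.2 in AI mock libraries, a difference of 1.91 ± 0.24 on the log2 scale (SE, n = 2 against 2, adjusted p = 0.000132 by limma). MRPS24, a small subunit protein of bacterial type, was at 56.2 and 44.5 in AD and 139.5 and 119.3 in AI (1.36 ± 0.23, adjusted p = 0.000845 by limma). MRPL11, a large subunit protein of the stalk base, stood at 42.8 and 42.0 in AD and 96.4 and 97.9 in AI (1.19 ± 0.14, adjusted p = 7.32e-05 by limma). Each of these 3 genes was more than 2-fold higher in both AI libraries, and the replicates of MRPL53 and MRPL11 lay close together.

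MRPS15 went from 220.3 and 225.3 RPKM in AD to 496.1 and 517.1 in AI (1.18 ± 0.13, adjusted p = 6.08e-05 by limma), which placed it level with MRPL24 (500.5 and 533.2) at the top of the AI mock libraries. MRPL12 was also higher, at 288.4 and 277.0 against 190.8 and 187.0 (0.58 ± 0.14, adjusted p = 0.00546 by limma). MRPS30, a large subunit protein despite its name, was at 29.7 and 28.3 in AI against 14.4 and 15.6 in AD (0.93 ± 0.14, adjusted p = 0.000337 by limma). MRPS18C was at 15.8 and 19.2 against 7.63 and 8.87 (1.04 ± 0.29, adjusted p = 0.013 by limma), a call lost without AD replicate 1 or AI replicate 2 (adjusted p = 0.0746 and 0.0815).

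Among the lower members the replicates of MRPL16 and MRPS6 lay closer together than those of MRPS31 and MRPS17. MRPS31, a small subunit protein without a bacterial counterpart, was at 18.1 and 22.6 RPKM in AD mock and 7.48 and 9.32 in AI mock libraries (-1.23 ± 0.18, adjusted p = 0.000289 by limma). MRPS17 was at 3.06 and 2.39 against 1.09 and 0.85 (-1.13 ± 0.24, adjusted p = 0.00311 by limma), while the second row of that symbol was at 19.7 and 22.8 against 20.2 and 20.8. MRPL16, a large subunit protein of bacterial type, was at 138.6 and 134.3 against 76.98 and 77.6 (-0.82 ± 0.24, adjusted p = 0.0175 by limma). MRPS6 was at 96.9 and 96.6 against 62.4 and 70.6 (-0.54 ± 0.17, adjusted p = 0.0195 by limma), opposite to its difference in untreated cells.

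The direction of such counts depends on how the libraries are scaled, since the deposited values put the median of all genes at -0.41 in this comparison. Scaling by trimmed means (TMM) put it at 0.00, and 55 members were then higher and 2 lower. Of all genes 3793 were higher and 3828 lower with TMM. Quantile normalization put it at 0.02, with 30 members higher and 3 lower, and 3440 and 3522 of all genes. The members' median stayed above the all-gene median by 0.67 as deposited, 0.80 with TMM and 0.37 with quantile normalization. MRPS18B, lower as deposited (-0.39 ± 0.15, adjusted p = 0.0498 by limma), had a difference of 0.14 with TMM, and its call was also lost without any 1 of the 4 libraries (adjusted p = 0.109 to 0.173 by limma). MRPL16 and MRPS6 were no longer called with TMM (adjusted p = 0.315 and 0.976 by limma), and MRPS17 not with quantile normalization (0.161). Members called lower numbered 3 without either AD library, and 2 and 4 without AI replicate 1 and 2. MRPL16 was lost without any 1 of the 4 libraries (adjusted p = 0.062 to 0.0745 by limma) and MRPS6 without either AD library or AI replicate 1 (0.0725 to 0.118).

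The libraries labelled siEZH2 gave nearly the same picture between AI and AD cells. Of 75 members 20 were higher and 12 lower, against 10.6% and 47.1% of all genes. Both AI libraries lay above both AD libraries for 39 members and below them for 26, against 20% and 61.5% of all genes. MRPL53, MRPS24, MRPL11 and MRPS15 again had the largest positive differences and MRPS31, MRPS17, MRPL16 and MRPS6 the largest negative ones. MRPL53 was at 29.9 and 30.9 RPKM in AD and 85.2 and 99.0 in AI (1.58 ± 0.24, adjusted p = 0.000425 by limma), and MRPS31 at 21.0 and 17.7 in AD and 6.05 and 7.70 in AI (-1.43 ± 0.18, adjusted p = 0.000104 by limma). MRPL3, a large subunit protein near the peptidyl transferase centre, was at 45.9 and 49.6 against 30.2 and 30.0 (-0.66 ± 0.18, adjusted p = 0.0109 by limma), and MRPL12 at 218.3 and 214.3 against 314.0 and 344.3 (0.60 ± 0.14, adjusted p = 0.00433 by limma). Over the 75 members the differences of the mock and siEZH2 comparisons, which share no library, had a Pearson r of 0.92 and a Spearman rho of 0.90 as a description, and 64 had the same sign. All of these libraries were transfected and had similar depth. The counts moved with scaling here too, to 48 higher and 1 lower with TMM and 25 and 6 with quantile normalization. Of all genes 3605 were higher and 3863 lower with TMM, and 3225 and 3358 with quantile normalization.

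**Figure D2:**
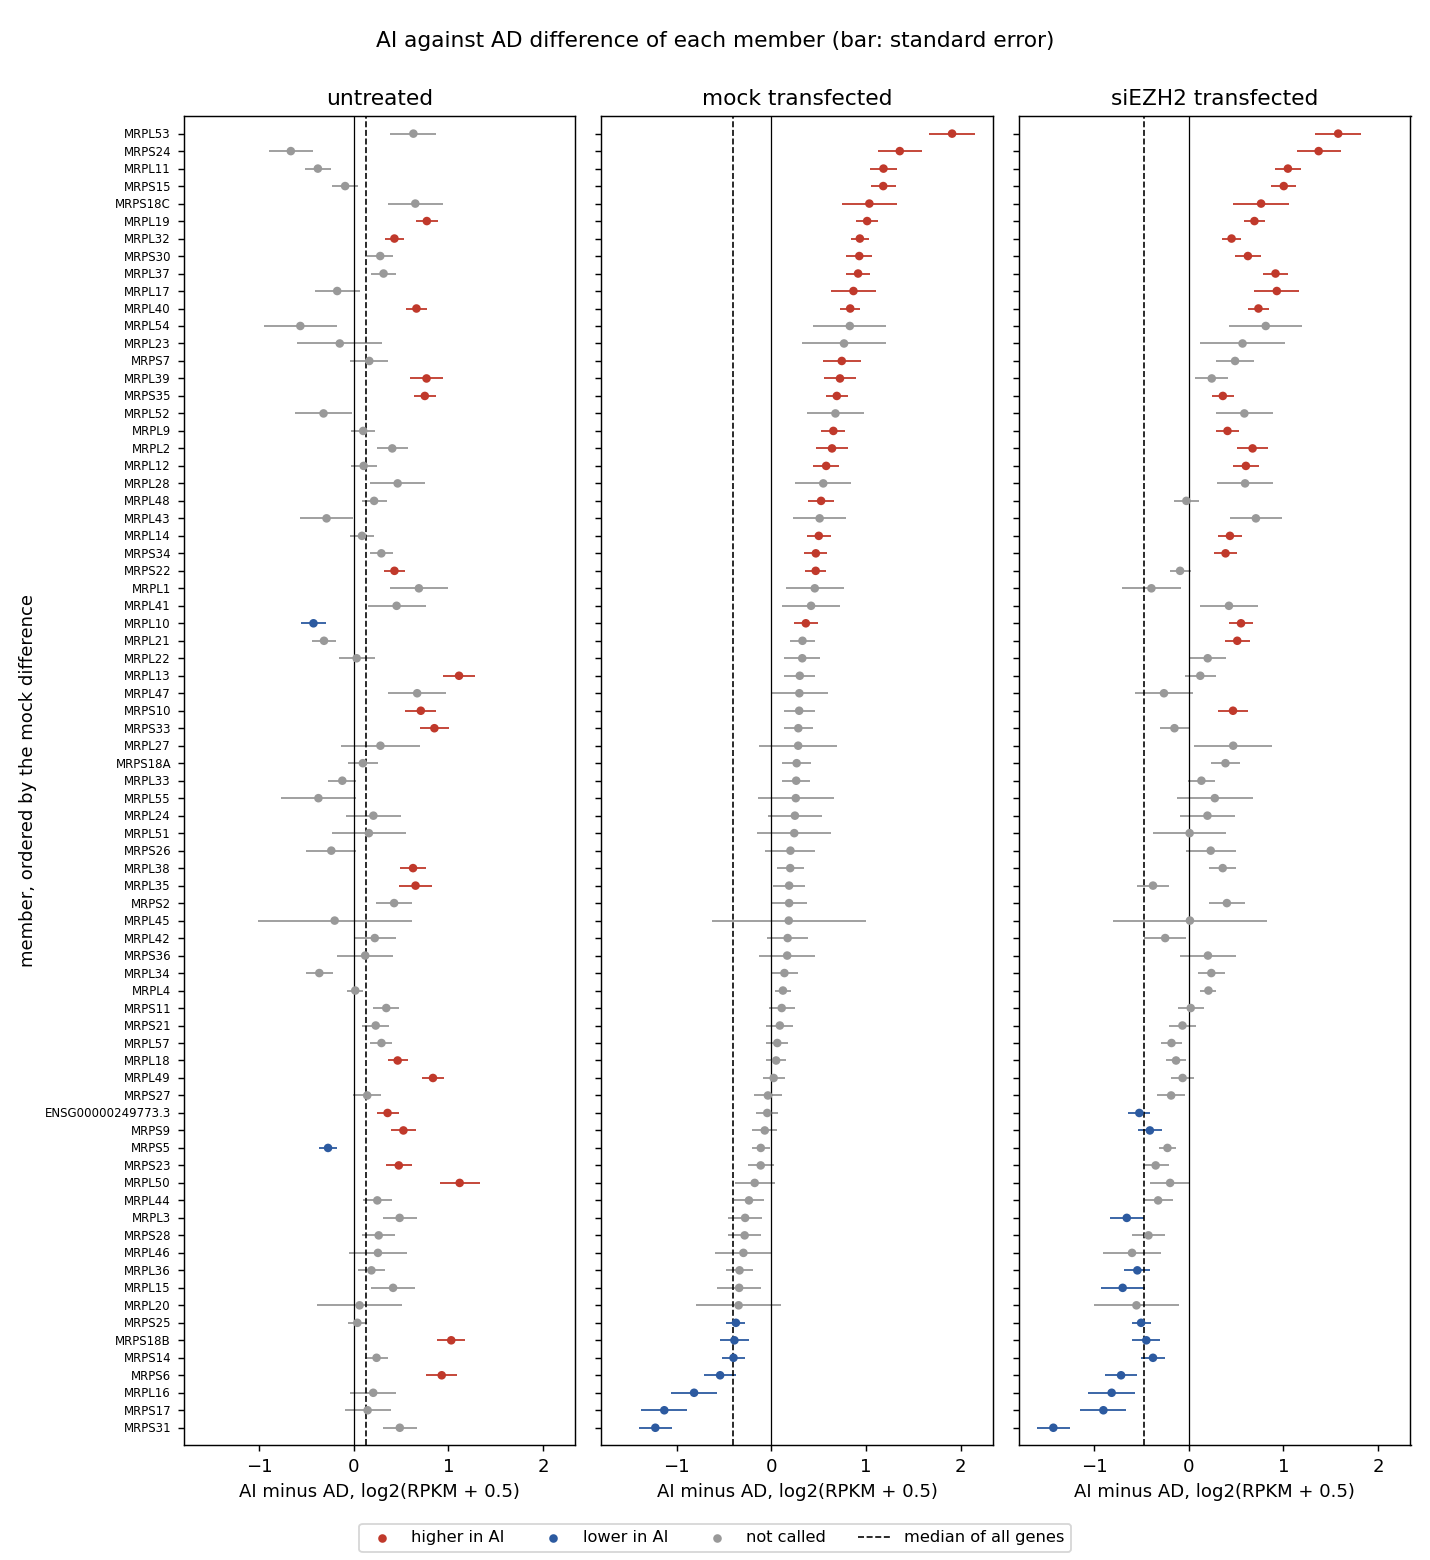
Difference between AI and AD cells for each of the 75 members (rows, ordered by the mock difference) in untreated, mock and siEZH2 libraries, on the log2(RPKM + 0.5) scale, with the standard error as a bar, calls in colour and the median of all genes as a dashed line. The mock and siEZH2 panels run in a similar order from MRPS31 to MRPL53, with 22 and 20 members called higher, and the untreated panel, with 19 called higher, does not follow it.

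Whether the difference between AI and AD cells differed with transfection was tested directly, as the mock difference minus the untreated one. For 11 members it was larger after mock transfection and for 15 smaller, where 8.99% of all genes were larger and 41.2% smaller. The small subunit had 2 of 24 larger and 8 smaller, and the large subunit 9 of 49 larger and 7 smaller. MRPS24 moved most, from 52.5 and 42.9 (AD) against 39.2 and 22.5 (AI) RPKM in untreated to 56.2 and 44.5 against 139.5 and 119.3 in mock libraries, a difference of differences of 2.02 ± 0.33 (adjusted p = 0.000819 by limma). MRPL11, at 45.6 and 40.2 against 36.6 and 29.4 in untreated cells, changed by 1.56 ± 0.20 (adjusted p = 0.000181 by limma). MRPS31 was at 12.3 and 14.98 against 18.4 and 20.0 in untreated cells and changed by -1.71 ± 0.25 (adjusted p = 0.000441 by limma).

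MRPS6, MRPS18B and MRPL50 were the other 3 of the 4 most negative members. The untreated difference is subtracted here, so a large untreated rise lowers the value by construction. MRPS6 changed by -1.47 ± 0.24 (adjusted p = 0.000721 by limma) and MRPS18B by -1.42 ± 0.21 (adjusted p = 0.000488 by limma). MRPL50 changed by -1.29 ± 0.30 (adjusted p = 0.00561 by limma), a call lost with TMM (adjusted p = 0.119) and quantile normalization (0.173). MRPL50 was at 3.61 and 3.92 RPKM in AD mock and 3.08 and 3.48 in AI mock libraries, so the AI mock level was below both untreated AI levels. Across all 3 comparisons 4 members were higher in AI each time (MRPL19, MRPL32, MRPL40 and MRPS35). Another 13 were called higher in both transfected comparisons and not called untreated, and 30 were called in none. Such patterns were not counted over all genes, so these counts cannot be called particular to the members. MRPS6 and MRPS18B were higher untreated and lower in both transfected comparisons, and MRPL10 the reverse. Over the 75 members the untreated and mock differences had a Pearson r of -0.16, again as a description, and 41 had the same sign. Untreated and transfected libraries also differ in depth and in their mitochondrially encoded share, and transfection cannot be told apart from these. With TMM 33 members were larger and 3 smaller, and with quantile normalization 19 and 7. Of all genes 3003 were larger and 3040 smaller with TMM, and 2620 and 2902 with quantile normalization. Leaving out 1 library gave 6 to 19 larger and 7 to 18 smaller: the count of larger ones was 19 without untreated AD replicate 2, 17 without untreated AI replicate 1, and 7 and 6 without AI mock replicate 1 and 2, and the count of smaller ones was 8 without AD mock replicate 2 and 7 and 9 without AI mock replicate 1 and 2.

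**Figure D3:**
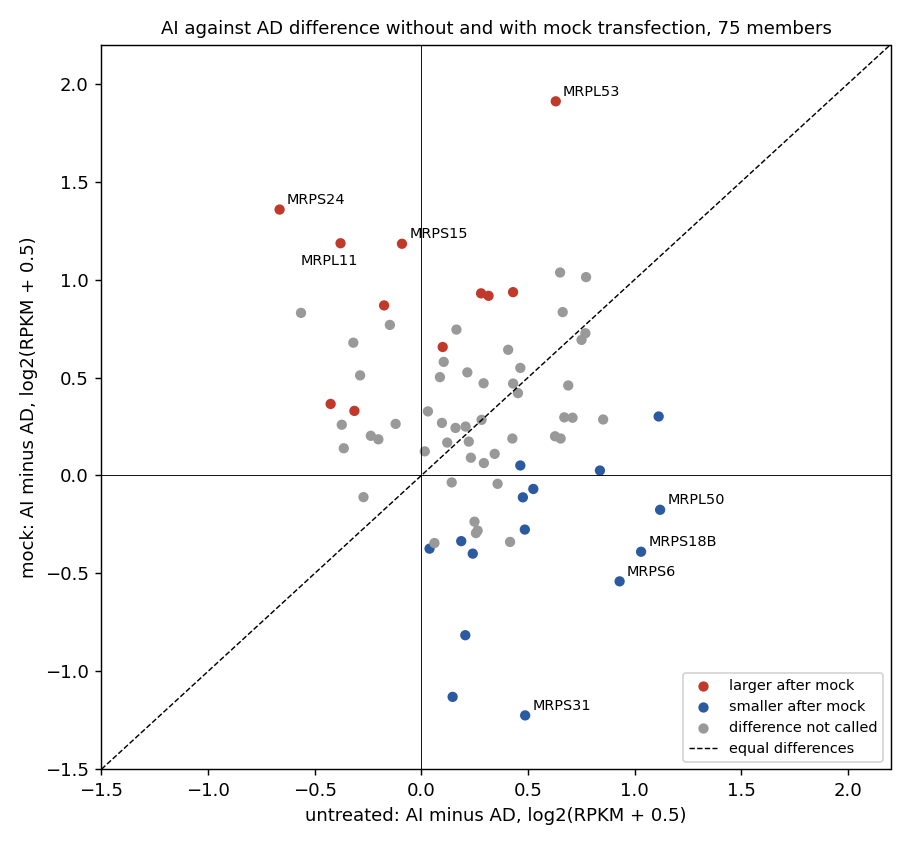
Difference between AI and AD cells in mock libraries (y axis) against that in untreated libraries (x axis) for the 75 members, both on the log2(RPKM + 0.5) scale, with members whose difference of differences passed the test in colour and the 4 most positive and 4 most negative of them named. MRPS24 lies highest above the diagonal, at -0.66 untreated and 1.36 mock, and MRPS31 lowest below it, at 0.49 and -1.23.

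Within AD cells 0 members differed between libraries labelled siEZH2 and mock (limma; 3 of 75 at an unadjusted p under 0.05), where 0.0141% of all genes were called. Both siEZH2 libraries lay above both mock libraries for 32 members and below them for 7, against 18.6% and 23% of all genes. Member differences ranged from -0.29 to 0.41 on the log2 scale. Within AI cells 0 members were higher and 3 were lower after siEZH2 (limma), against 0.0703% and 1.39% of all genes. Both siEZH2 libraries lay above both mock libraries for 22 members and below them for 28, against 21.5% and 32.4% of all genes. MRPL19, a large subunit protein of bacterial type, was at 29.95 and 32.9 RPKM in mock and 20.7 and 20.0 in siEZH2 libraries (-0.61 ± 0.11, adjusted p = 0.0416 by limma). MRPL32, known as a substrate of the mitochondrial m-AAA protease before it joins the large subunit, was at 119.0 and 129.6 against 80.9 and 84.1 (-0.59 ± 0.10, adjusted p = 0.0362 by limma). MRPS22, a small subunit protein without a bacterial counterpart, was at 83.0 and 87.4 against 55.4 and 60.0 (-0.56 ± 0.11, adjusted p = 0.0475 by limma). In each of the 3 both siEZH2 libraries lay below both mock libraries, and in AD cells MRPL19 was at 14.5 and 16.1 in mock and 11.3 and 13.6 in siEZH2 libraries. The 3 calls were lost with TMM, with quantile normalization, in a fit of the 4 AI libraries alone, and without any 1 of those libraries. Members had a median of -0.06, near that of all genes at -0.05.

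Genes of other parts of the mitochondrial translation machinery were counted in the same comparison of mock AI with AD libraries, in which 12.2% of all genes were higher and 43.5% lower. No test compared these lists with the members. Of the list for assembly, 16 of 27 genes, which build the mitochondrial ribosome and modify its rRNA, were lower and 4 higher. DDX28, an RNA helicase of large subunit assembly, went from a mean of 9.11 RPKM in AD to 0.87 in AI (-2.81 ± 0.18, adjusted p = 2.35e-06 by limma). NOA1, a GTPase needed for the small subunit, was higher, at 40.5 against 25.9 (0.64 ± 0.13, adjusted p = 0.00226 by limma). Of 15 translation factors 7 were lower, a share near that of all genes, and 3 higher, among them MTIF2, the initiation factor, at 33.8 in AI against 14.04 in AD (1.24 ± 0.12, adjusted p = 1.93e-05 by limma). MTIF2 was lower after siEZH2 in AI cells, at 20.9 (-0.69 ± 0.12, adjusted p = 0.0362 by limma), a call lost with TMM (adjusted p = 0.0687), with quantile normalization (0.125), in a fit of the 4 AI libraries alone (0.098) and without any 1 of those libraries (0.105 to 0.205).

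Of 18 mitochondrial aminoacyl-tRNA synthetases, which charge tRNAs inside the organelle, 7 were lower and 2 higher, again near the shares of all genes. PARS2, for proline, fell to 0.35 in AI from 6.54 in AD (-3.05 ± 0.14, adjusted p = 5.35e-07 by limma). Of 15 genes listed for mitochondrial DNA expression 9 were lower and 1, LRPPRC, was higher, at 38.0 against 12.3 (1.59 ± 0.17, adjusted p = 4.92e-05 by limma). The medians were -0.49 for assembly, -0.27 for factors, -0.23 for synthetases and -0.51 for mitochondrial DNA expression, next to -0.41 over all genes and 0.26 over the members. With TMM the counts became 6 lower and 7 higher for assembly and 1 and 6 for factors. They became 4 and 7 for synthetases and 2 and 3 for mitochondrial DNA expression. The direction with more calls thus changed with scaling in each of these 4 lists. Of all genes 3828 were lower and 3793 higher with TMM.

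Among mitoribosomal proteins under other names, GADD45GIP1 (377 against 221 RPKM, 0.77 ± 0.18, adjusted p = 0.00436 by limma) and ICT1, a ribosome rescue factor built into the large subunit (164 against 105, 0.65 ± 0.19, adjusted p = 0.0174 by limma), were higher in mock AI cells, 2 of 6 in all. The cytosolic ribosomal proteins had 68 of 73 higher and 0 lower (limma; 70 at an unadjusted p under 0.05), with a median of 1.33, and with TMM 72 higher and 0 lower. RPL35 was at 1653 against 399 RPKM in AI and AD mock libraries (2.05 ± 0.18, adjusted p = 1.28e-05 by limma). In untreated cells, where 22.2% of all genes were higher and 12.4% lower, the same list had 4 higher and 6 lower with a median of -0.16. Assembly factors had 8 of 27 higher there (29.6%, near the share of all genes) and 0 lower (limma). Mitochondrial DNA expression had 8 of 15 higher (53.3%) and 0 lower (limma). Of the known regulators of nuclear genes for mitochondria, 0 of 9 were higher and 4 lower in mock AI cells (limma; 6 at an unadjusted p under 0.05), next to 12.2% and 43.5% of all genes, including PPRC1, at 0.98 against 7.31 RPKM (-2.40 ± 0.17, adjusted p = 3.63e-06 by limma). MYC was another, at 30.7 against 97.5 (-1.65 ± 0.10, adjusted p = 1.64e-06 by limma). In untreated cells MYC was the 1 regulator called lower, at 93.4 in AI against 178.5 in AD (-0.93 ± 0.10, adjusted p = 0.000143 by limma), and 1, GABPB1, was higher.

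The 2 untreated libraries of a group differed in the members more than mock libraries did. Replicate 1 exceeded replicate 2 by more than 1.5-fold for 19 members in AD and 25 in AI, and for 0 in either mock group. A ratio above 2 in both cell types was found for 7 members, namely MRPL20, MRPL23, MRPL27, MRPL45, MRPL51, MRPL54 and MRPL55, all of the large subunit. MRPL45, a protein near the exit of the large subunit tunnel, had the largest ratio, at 279.01 and 49.75 RPKM in AD and 243.71 and 43.00 in AI. Its mock levels were 65.2 and 66.8 in AD and 76.8 and 73.4 in AI. MRPL20 was at 140.5 and 58.5 in AD and 156.4 and 57.2 in AI, and MRPL23 at 93.0 and 33.0 in AD and 76.2 and 32.8 in AI. Over the 75 members the log2 ratios of AD and AI had a Pearson r of 0.93, as a description. Over all 14227 genes tested, the replicate deviations of untreated AD and AI had an r of 0.70. The shared deviation was thus not limited to the members. Genes above these ratios were not counted over the whole table, so the member counts cannot be called particular to the members. Replicates 1 and 2 also differed in depth and in the mitochondrially encoded share (18.4% and 19.6% in replicate 1, 32.6% and 33.4% in replicate 2), whose part in these ratios was not tested. None of these 7 members was called between untreated AI and AD cells. They were chosen for a wide spread between replicates, which itself makes a call less likely, so no conclusion is drawn from this.

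**Figure D4:**
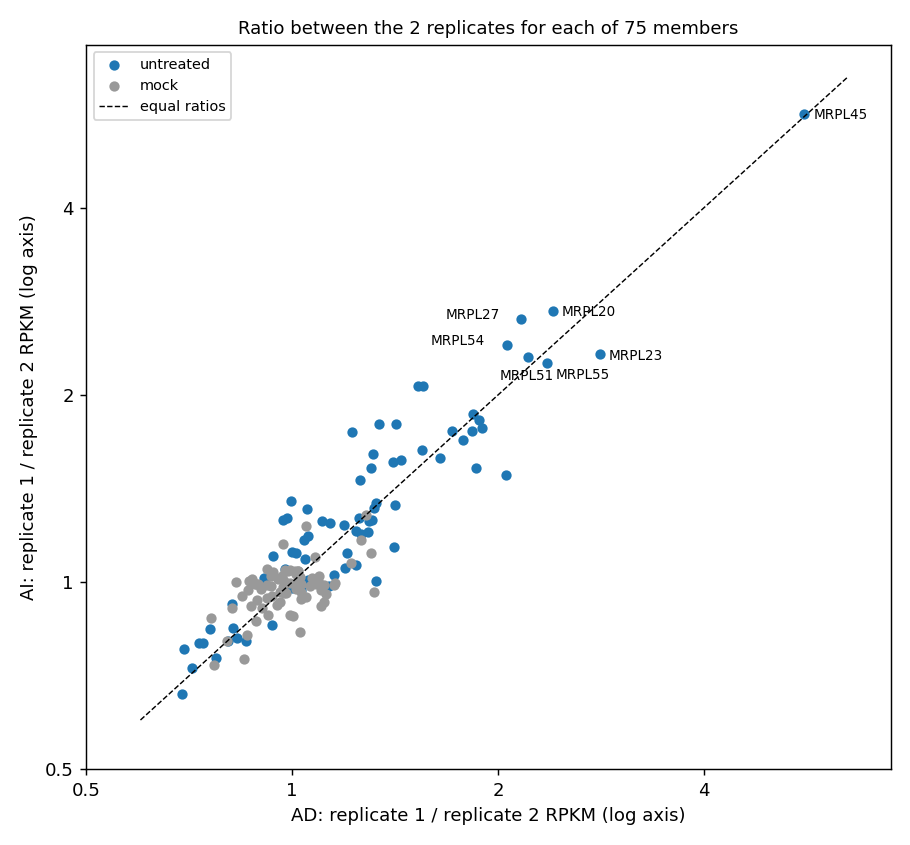
Ratio of RPKM in replicate 1 to replicate 2 for each of the 75 members, AI (y axis) against AD (x axis), both log axes, in untreated libraries (blue) and mock libraries (grey), with a dashed line of equal ratios. Untreated members follow the line up to MRPL45 at 5.61 in AD and 5.67 in AI, while mock members stay between 0.74 and 1.32.

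The peak lists were compared with the RefSeq starts of 65 members, taking a peak within 1000 bases on either side. H3K27me3 peaks overlapped the start of 0 members in both AD lists and in AI replicate 2, and of 1 member in AI replicate 1, where 5.24% to 14.6% of 13125 protein-coding genes had one. That member was MRPL3, and its peak (chr3:131503878-131509514, GRCh38) began 907 bases upstream of the start, before the stretch printed above, with a score of 719 that is the authors' own value. It no longer counted when an overlap of 200 bases was asked for. Within gene bodies 0 members had an H3K27me3 peak in any of the 4 lists, against 17.9% to 24.3% of genes.

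EZH2 peaks were at the start of 3 members in each AD list (4.62% of 65) and of 0 in the AI list, against 8.94%, 2.13% and 0.983% of genes. They were MRPL27, MRPL55 and MRPS34 in AD replicate 1 and MRPL41, MRPL55 and MRPS26 in AD replicate 2. MRPL55 was shared, with peaks at chr1:228107657-228109105 (score 234) and chr1:228108436-228109124 (score 70.0), both downstream of the start in the direction of transcription. The 3 peaks of AD replicate 2 had scores below 100. MRPL55 mRNA was at 38.2 and 39.4 RPKM in AD mock and 43.3 and 41.6 in AD siEZH2 libraries, and the test called no difference.

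In the RIP libraries the members were no longer near the top. Their median percentile among protein-coding genes was 57.2 in AD and 56.9 in AI EZH2 libraries and 63.2 in AD and 58.9 in AI IgG libraries, next to about 90 in RNA-seq, where the authors scaled the 2 tables separately. Depth was approximately 4590000 to 8190000 reads for EZH2 and 84000 to 1860000 reads for IgG. In AI IgG replicate 2 a single read in a gene of 1 kb was worth 11.9 RPKM, and 45 of 75 members were listed at 0 there. In the other 3 IgG libraries 22, 1 and 25 members were at 0, and in the EZH2 libraries 0 to 3.

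MRPL24, the most abundant member in RNA-seq, was at 9.01 and 20.7 RPKM with EZH2 antibody and 23.2 and 23.3 with IgG in AD cells. In AI cells it was at 7.57 and 35.9 with EZH2 antibody and 21.1 and 13.3 with IgG. MRPS5 was at 13.7 and 11.2 against 13.0 and 4.90 in AD, and 11.1 and 9.07 against 2.96 and 7.43 in AI. The AI groups of MRPS5 did not overlap, and the other 3 pairs did or had IgG higher. MRPS25 was at 8.27 and 14.3 against 15.25 and 11.1 in AD cells, which overlapped. Across the members the order in EZH2 RIP followed that in RNA-seq with a Spearman rho of 0.60 in AD and 0.69 in AI, and the order in IgG with 0.67 and 0.34, given as a description.

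Of 73 members tested 0 were higher or lower with EZH2 antibody than with IgG in AD cells (limma; 0 at an unadjusted p under 0.05) and 0 in AI cells (limma; 8 at an unadjusted p under 0.05), as was the case for 0% of all 13667 genes in both. These counts are from the fit without a replicate block. With a block 4 members were higher in AI cells, and of all genes 1291 were higher and 47 lower. Without AI IgG replicate 1, 2 members were higher in AI cells, and 637 of all genes were higher and 64 lower. The median difference was -0.24 in AD, where all genes had 0.43, and 0.78 in AI, where all genes had 0.88. In AD cells 7 members had both EZH2 libraries above both IgG libraries and 18 below, where 31.4% and 12.4% of all genes did. In AI cells 18 were above and 7 below, against 45.2% and 4.08%. Between AI and AD EZH2 libraries 0 of 73 were called (limma; 0 at an unadjusted p under 0.05; 0% of all genes), with a median of -0.04. In simulated data this comparison recovered 0% of genes changed by 1 or by 2 on the log2 scale. The count of 0 therefore does not show that the levels were equal. In the individual libraries 6 members were higher in both AI than in both AD EZH2 libraries and 5 lower, against 13.8% and 9.17% of all genes.

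**Figure D5:**
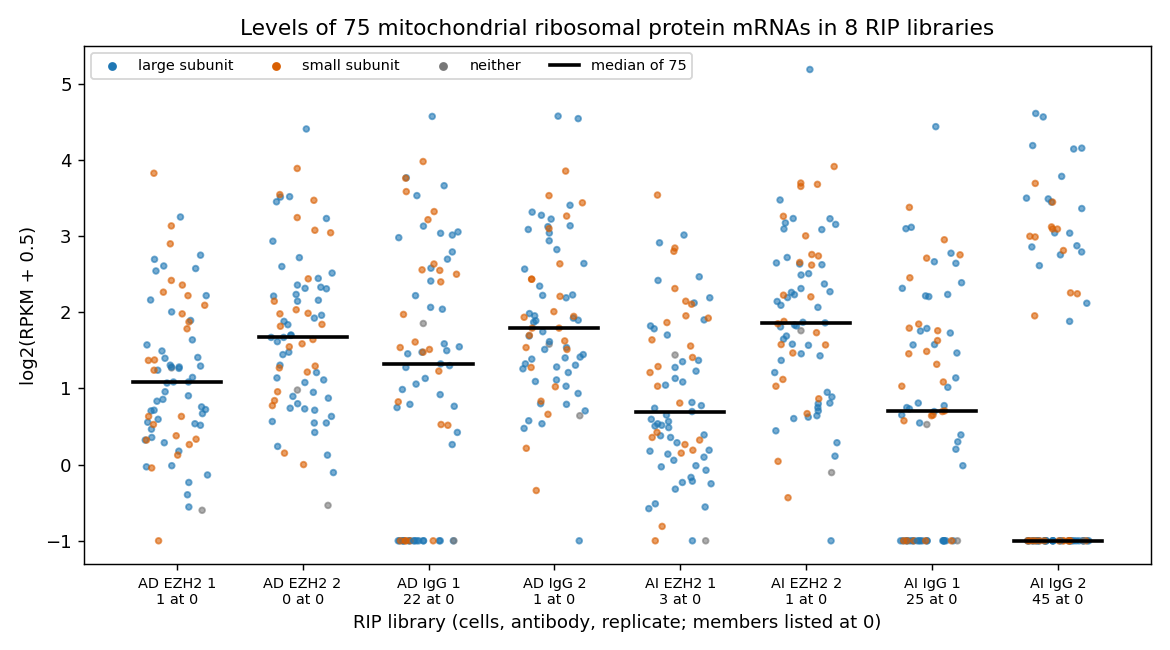
Level of each of the 75 members in each of 8 RIP libraries on the log2(RPKM + 0.5) scale, with black bars for the median and, under each library, the number of members listed at 0, which lie at -1. The IgG libraries hold 1 to 45 members at 0 and the EZH2 libraries 0 to 3, and the ranges of EZH2 and IgG levels overlap.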

How the data were processed

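RNA-seq and RIP values are RPKM per gene as the authors deposited them, and the peak lists carry a score per peak, deposited by the authors. The submitters' processing notes name cutadapt, TopHat2, edgeR and Bowtie2 and the build GRCh38. Not given in the sources used here were the counter, the annotation release and whether counting was stranded. Overlapping and antisense genes therefore cannot be told apart. Members and gene lists were chosen with earlier results of these data known. Genes with at least 0.5 RPKM in 2 libraries (14227 in RNA-seq, 13667 in RIP) were tested with limma-trend (limma 3.58.1, R 4.3.3) on log2(RPKM + 0.5), with 1 coefficient per group over all libraries of the table and Benjamini-Hochberg adjustment at 0.05. That scale understates changes of low genes. Standard errors come from the same fit, so the spread within every group of the table enters each of them. The planned design allowed for counts, but the files hold RPKM, so no count model was used and TMM factors were computed without count weights, trimming 30% of ratios and 5% of levels. The procedure was tested on simulated data, with 100 genes changed at each size. For mock AI against AD RNA it recovered 58% at a log2 difference of 1 and 90% at 2. For EZH2 RIP of AI against AD it recovered 0% at either size, so a count of 0 there does not show equal levels. Named genes were EZH2, up to 4 largest rises and falls among called members per comparison, a fixed set (MRPL12, MRPL3, MRPL33, MRPS12, the MRPS18 family, MRPS30, MRPS36 and MRPL58), and up to 2 rises and falls per other list. MRPL24, MRPL45 and the other members with 2-fold replicate ratios, the members with peaks, MRPS25 and the MRPL19 values in AD cells were added after their values were seen, and the NRF1 half-site replaced a longer palindrome searched first. Depth was estimated from whole-read steps of low values and is approximate. Alternatives were other pseudocounts (0.1 and 1), no filter, TMM, quantile normalization, scaling without mitochondrially encoded genes, fits of the compared libraries alone, a replicate block and leaving out each library.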

Additional observations from a re-analysis of the deposited data

Results flagged for a closer look

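The difference between AI and AD cells differed between mock and untreated libraries by a test of that difference (limma, adjusted p under 0.05), being larger after mock transfection for 11 members and smaller for 15. The most positive values were 2.02 for MRPS24, 1.56 for MRPL11, 1.28 for MRPL53 and 1.27 for MRPS15. The most negative were -1.71 for MRPS31, -1.47 for MRPS6, -1.42 for MRPS18B and -1.29 for MRPL50. For the 4 positive genes the AI mock and AI siEZH2 libraries lay above those of the other 4 groups, and for MRPS6, MRPS18B and MRPL50 the untreated AI libraries lay above all others.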

How the results depend on the processing

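Counts of members called are given as higher and lower in AI, or after siEZH2 or with EZH2 antibody. Untreated AI against AD (19 and 2) gave 1 and 0 in a fit of its own libraries (all genes 588 and 518). It had 5 lower with quantile normalization (all genes 2291), 6 lower with TMM (2332) and 1 lower without the filter (1597). Mock AI against AD (22 and 7) gave 55 and 2 with TMM (all genes 3793 and 3828). It had 3 lower with quantile normalization (all genes 3522) and 39 higher in a fit of its own libraries (2128). The siEZH2 comparison of AI with AD (20 and 12) gave 48 and 1 with TMM (all genes 3605 and 3863). It had 6 lower with quantile normalization (all genes 3358) and 33 higher in its own libraries (1914). Without mitochondrially encoded genes in the scaling it had 13 and 20 (all genes 1124 and 7313). siEZH2 against mock in AI (0 and 3) gave 0 lower in all 4 of these settings, where 35, 7, 0 and 58 of all genes were lower. The difference of differences (11 larger, 15 smaller) gave 19 and 7 with quantile normalization (all genes 2620 and 2902) and 33 and 3 with TMM (3003 and 3040). It had 6 larger without mitochondrially encoded genes (all genes 1035) and 8 smaller in its own libraries (5437). Reversed values were MRPS18B in mock AI against AD RNA (0.1411 with TMM) and in siEZH2 AI against AD RNA (0.1357) and DAP3 in siEZH2 AI against AD RNA (0.3345). The median of all genes moved with TMM by construction; the cause of the other moves was not tested.

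Without 1 library, untreated counts ran from 18 to 26 higher and 1 to 6 lower, mock from 18 to 21 and 2 to 4, siEZH2 AI against AD from 14 to 16 and 6 to 10, the difference of differences from 6 to 19 and 7 to 18, siEZH2 against mock in AI 0 to 0 lower, and EZH2 RIP against IgG in AI 0 to 2 higher, the 2 without AI IgG replicate 1. The comparisons of siEZH2 with mock in AD and of RIP in AD, and AI with AD RIP, stayed at 0 in all of these.

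Replicate numbers were not taken as pairs, since same-numbered libraries did not deviate together in all groups (over all genes, r of 0.70 between untreated AD and AI, 0.06 between mock AD and AI and 0.01 between siEZH2 AD and AI). In RIP, r was 0.71 between EZH2 AD and AI, 0.33 between EZH2 and IgG in AD and 0.24 in AI, and with 2 numbers this is no test of pairing. With a replicate block over all libraries EZH2 RIP against IgG in AI had 4 members higher and, of all genes, 1291 higher and 47 lower, and no other count of members moved by more than 1.5 times. A replicate block fitted separately in untreated and transfected libraries was chosen after seeing the data. It gave 38 and 11 untreated (all genes 4259 and 2384) and 42 and 12 mock (2379 and 6893). For siEZH2 AI against AD it gave 36 and 20 (all genes 2081 and 7428). For siEZH2 against mock in AI it gave 2 and 12 (403 and 1436), and for the difference of differences 24 and 24 (1796 and 6720).

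For peaks, whole gene bodies gave 18 and 10 members with EZH2 in the AD lists and 6 in AI. These were 27.7%, 15.4% and 9.23% of members, below the 51.3%, 24.9% and 23.1% of all protein-coding genes. H3K27me3 in AI replicate 1 had 0 members by gene body, against 19.5% of genes. Scores of at least 100 left 0 in EZH2 AD replicate 2 (0.0381% of genes). An overlap of 200 bases left 0 in H3K27me3 AI replicate 1 (5.07% of genes). Depth limits the IgG libraries most. For named genes under these settings, 2384 values kept direction and side of the threshold, 215 lost and 36 gained a call and 3 reversed.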
